A study of Mus musculus with 6 samples.

Results

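Transcripts of the choroid plexus epithelium, with Ttr, Kl and Folr1 among them, stood far above all other arrays on a single array of this series, that of vehicle replicate 1. Members were selected on that array. In the deposited table of log2 values, which the methods describe as quantile normalized, a probe was taken when its value on vehicle replicate 1 was at least 8 and lay at least 2 above the median of the other 5 arrays, and 1 passing probe was kept for each gene name, the one that averaged highest on the 6 arrays. The rule was met by 72 probes, which gave 65 members out of 37074 gene names on the array. The excess of vehicle replicate 1 is therefore given as a description, without a test, and tests are confined to the other 5 arrays.

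The study asked how GSK-J4, a small molecule that inhibits the Kdm6 family of H3k27me3 demethylases, changed gene expression in the hypothalamus of obese mice. RNA of the whole hypothalamus from male C57BL/6J DIO mice, in which obesity was induced by feeding a high-fat diet (60 kcal% fat, 16 weeks), was hybridized in 1 colour, with 3 arrays of mice given GSK-J4 at 30 mg kg−1 and 3 arrays of mice given vehicle (0 mg kg−1, DMSO in water), each by daily intraperitoneal injection. The methods count an individual mouse as the biological replicate in vivo, and each array was taken to come from a different mouse. Tissue was taken at ZT 6 h, that is, 6 h after lights on. The design text of the series dates the arrays to day 4 of exposure, whereas the methods describe a longer course of injections. The drug reached the whole animal, and the samples are bulk RNA, in which fewer cells of a type and less RNA per cell cannot be told apart.

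The choroid plexus is the secretory tissue that hangs into the brain ventricles. Its epithelium makes cerebrospinal fluid by moving ions, bicarbonate and water through apical and basolateral transporters, and it secretes large amounts of transthyretin, the carrier of thyroxine and of the retinol-binding protein. One of its parts lies in the roof of the third ventricle, near the hypothalamus.

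All 3 vehicle arrays lay on 1 slide and all 3 GSK-J4 arrays on another, so slide and treatment cannot be told apart. Vehicle replicate 1 shared its slide with vehicle replicates 2 and 3, and 63.6% of its probes were well above background, against 62.8% to 63.4% on those and 57.7% to 58.7% on the GSK-J4 arrays. Across probes well above background on all 6 arrays it correlated with vehicle replicates 2 and 3 at 0.991 and 0.990, while those correlated with each other at 0.995. The GSK-J4 arrays correlated with each other at 0.985 to 0.991. Of 18 hypothalamic markers, 13 were well above background on at least 1 array, and Sim1, Nkx2-1, Otp, Hmx2 and Hmx3 were so on none. Markers of neighbouring forebrain were also measured, with 11 of 12 for thalamus and habenula, 8 of 8 for hippocampus, 7 of 7 for cortex and 7 of 8 for striatum.

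Of the 65 members, 34 were on the 5 lists of choroid plexus genes, which hold 64 genes sorted by role. The lists were written with earlier results of these data known, so the count describes the members and is no independent evidence of their source. In the RefSeq gene table (GRCm38.p6), 59 members were protein-coding genes and 6 names had no match. The excess of vehicle replicate 1 over the median of the other arrays ran from 2.01 to 7.60 on the log2 scale, with a median of 3.82, and from 2.01 to 6.80 over the 48 members that were well above background on all 6 arrays, whereas over the 24607 genes detected on any array its median was −0.03 and its quartiles were −0.23 and 0.17. Vehicle replicate 1 was the highest array for each of the 65 members, by 0.31 to 6.00 over the next array. The excess was as large against the slide neighbours alone, since the members lay 1.18 to 7.95 above the mean of vehicle replicates 2 and 3, with a median of 3.92, and 61 of them by at least 2.

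**Figure D1:**
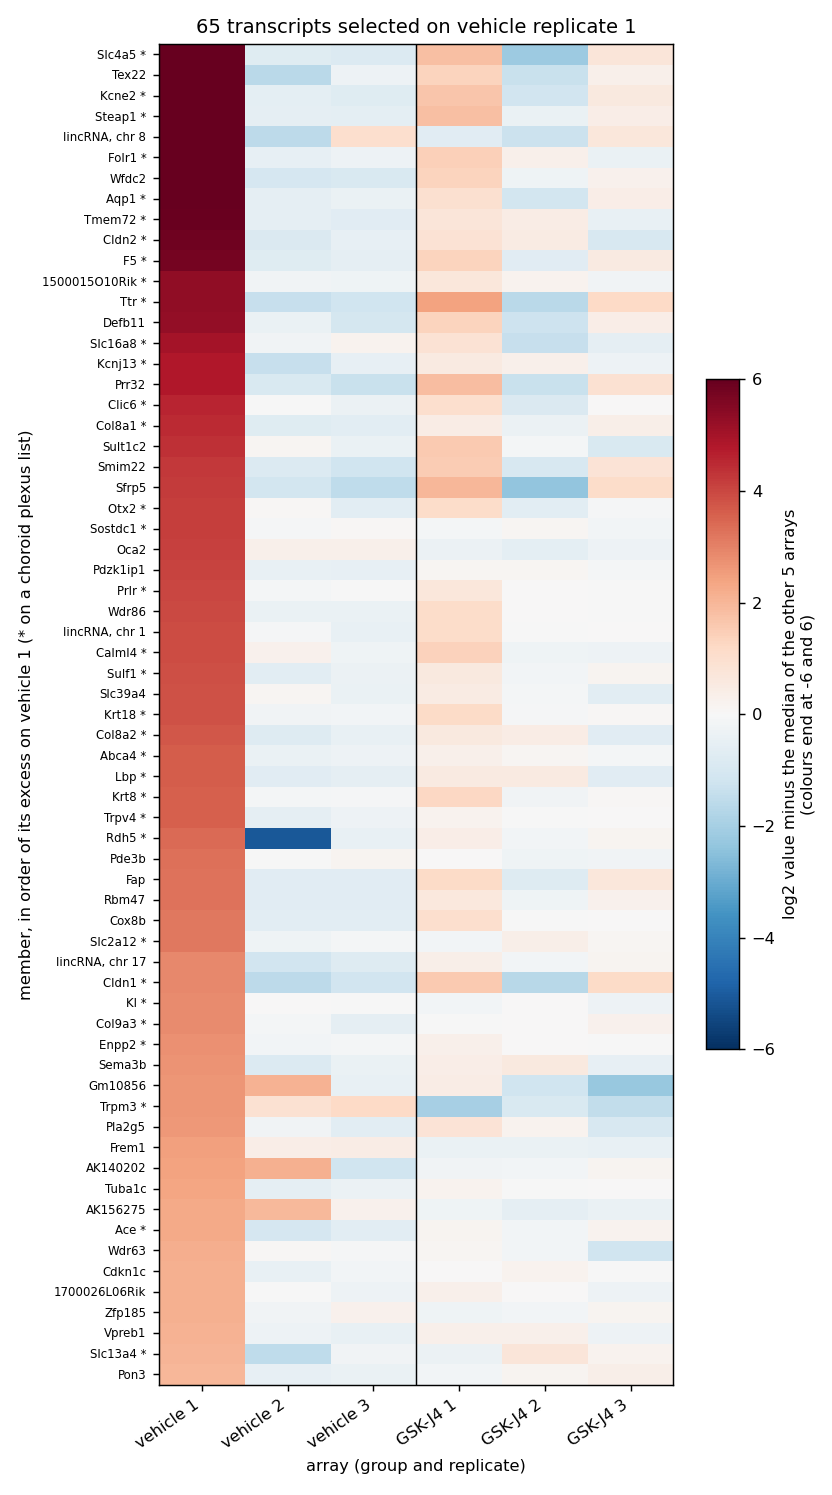
Heat map of the 65 members (vertical, in order of their excess) on the 6 arrays (horizontal, vehicle and GSK-J4 replicates), coloured by the log2 value minus the median of the other 5 arrays. Vehicle replicate 1 is the highest array in every line, and GSK-J4 replicate 1 is the next highest in most.

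The rule had chosen the members for high values on vehicle replicate 1, so their common excess there is no observation of its own. The sequences upstream of those choroid plexus members with the largest excess that had a promoter in the table, which Folr1 had not, are shown as a description. They are the 250 bases before the start of Slc4a5 (chr6:83237125-83237374 on the plus strand), of the distal and the proximal start of Kcne2 (chr16:92292139-92292388 on the plus strand, and chr16:92295366-92295615 on the plus strand), of Steap1 (chr5:5749318-5749567 on the minus strand) and of Aqp1 (chr6:55336049-55336298 on the plus strand), from RefSeq on GRCm38.p6, 5′ to 3′. Otx2, which encodes a homeodomain factor of the choroid plexus epithelium, was added after its promoters had been searched, with 1 that held matches (chr14:48665110-48665359 on the minus strand). Capitals mark TAATCC, the core bound by Otx2, the homeodomain core TAATTA and the forkhead core TGTTTAC, each searched on both strands, so that GGATTA is TAATCC on the other strand.
Slc4a5: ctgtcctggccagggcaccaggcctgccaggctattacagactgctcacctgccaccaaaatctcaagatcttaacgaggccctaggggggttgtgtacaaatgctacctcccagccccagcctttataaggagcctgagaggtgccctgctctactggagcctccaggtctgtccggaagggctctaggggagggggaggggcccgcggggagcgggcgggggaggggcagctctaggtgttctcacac
Kcne2 distal start: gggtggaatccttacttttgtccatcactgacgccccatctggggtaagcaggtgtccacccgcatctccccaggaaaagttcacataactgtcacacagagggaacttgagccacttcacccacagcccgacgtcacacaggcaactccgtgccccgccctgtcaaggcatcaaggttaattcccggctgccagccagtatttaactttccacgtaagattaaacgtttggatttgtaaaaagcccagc
Kcne2 proximal start: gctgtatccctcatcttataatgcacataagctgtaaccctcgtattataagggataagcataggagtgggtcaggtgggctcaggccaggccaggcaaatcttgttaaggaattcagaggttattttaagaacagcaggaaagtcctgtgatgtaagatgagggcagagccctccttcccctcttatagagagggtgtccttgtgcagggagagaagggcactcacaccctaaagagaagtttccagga
Steap1: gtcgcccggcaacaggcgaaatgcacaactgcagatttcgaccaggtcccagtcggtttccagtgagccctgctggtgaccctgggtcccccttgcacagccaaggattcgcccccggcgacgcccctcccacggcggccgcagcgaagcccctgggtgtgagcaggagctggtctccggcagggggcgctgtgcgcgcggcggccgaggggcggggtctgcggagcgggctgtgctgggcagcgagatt
Aqp1: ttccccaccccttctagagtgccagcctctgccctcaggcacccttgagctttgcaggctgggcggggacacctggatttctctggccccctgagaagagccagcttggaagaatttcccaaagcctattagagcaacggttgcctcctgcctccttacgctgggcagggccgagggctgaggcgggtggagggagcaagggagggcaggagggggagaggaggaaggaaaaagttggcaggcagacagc
Otx2: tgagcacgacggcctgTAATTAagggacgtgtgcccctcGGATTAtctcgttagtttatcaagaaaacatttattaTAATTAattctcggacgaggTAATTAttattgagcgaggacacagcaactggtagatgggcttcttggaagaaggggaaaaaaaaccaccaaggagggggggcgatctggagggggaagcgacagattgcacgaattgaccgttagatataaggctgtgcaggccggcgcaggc
The sequences of Slc4a5, Kcne2, Steap1 and Aqp1 hold none of these letters. The table gives 4 promoters of Otx2, of which the printed one holds TAATCC and TAATTA, 1 holds TAATTA alone and 2 hold neither. Promoters were in the table for 45 of the 65 members, as 59 sequences. TAATCC was in 6 of these, or 10.2%, beside 6.25% of all 32536 promoters in the table. TAATTA was likewise in 10.2% of the members' promoters, beside 4.84% of all, and TGTTTAC was in 1.69%, beside 3.17%. A match is a description of the letters only, and it says nothing on which factors bind there.

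Among the secreted proteins, 8 members were chosen by the rule, with an excess of 2.76 to 5.74. Ttr, which encodes transthyretin, measured 16.15 on vehicle replicate 1, 10.66 and 10.85 on vehicle replicates 2 and 3, and 13.24, 10.42 and 12.03 on GSK-J4 replicates 1, 2 and 3. On this probe vehicle replicate 1 was thus 39.4-fold above the median of the other arrays, and among those others GSK-J4 replicates 1 and 3 stood above both remaining vehicle arrays. A second Ttr probe, given below, had a larger excess of 8.17 on the log2 scale, so the size of the excess depended on the probe. Enpp2, which encodes autotaxin, the enzyme that makes lysophosphatidic acid, measured 16.43 on vehicle replicate 1 and between 13.53 and 13.96 on the other 5. Sostdc1, a secreted antagonist of BMP signalling, measured 11.79 there and stayed within 7.53 and 7.73 elsewhere, so that the other arrays differed from each other by far less than from vehicle replicate 1. F5, coagulation factor V, had an excess of 5.74 and 1500015O10Rik (Ecrg4), a secreted precursor abundant in this epithelium, one of 5.31. Sulf1, a sulfatase of heparan sulfate, stood 3.86 above the median, Lbp, the lipopolysaccharide binding protein, 3.62 and Rdh5, a retinol dehydrogenase, 3.41. Rdh5 was also low on 1 array, at 3.61 on vehicle replicate 2 beside 8.25 to 8.94 on the other 4.

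Receptors and surface proteins gave 8 members, with an excess of 2.26 to 6.34. Folr1 encodes the receptor that carries folate into the cerebrospinal fluid, and its probe lies at chr7:109006846-109006905 of mm9. It measured 13.22 on vehicle replicate 1, 6.83 and 7.03 on vehicle replicates 2 and 3, and 8.45, 7.33 and 6.93 on GSK-J4 replicates 1, 2 and 3, a 73.2-fold excess over the median. Kl encodes klotho, a co-receptor of FGF23 that is shed into the fluid, and its probe lies at chr5:151796302-151796361 of mm9. It measured 12.06 on vehicle replicate 1, 9.25 and 9.20 on vehicle replicates 2 and 3, and 9.07, 9.23 and 8.94 on the GSK-J4 arrays in the same order. Its excess of 2.86, or 7.25-fold, was smaller than that of Folr1, and its other 5 arrays lay between 8.94 and 9.25, with no higher value on GSK-J4 replicate 1. Steap1, a membrane protein of the STEAP family, had an excess of 6.34, Cldn2, a claudin of leaky epithelia, 5.84, Prlr, the prolactin receptor, 4.00, Cldn1, another claudin, 2.86 and Ace, the angiotensin-converting enzyme, 2.26. Tmem72 was well above background on vehicle replicate 1 alone and was there at least 17.4-fold above the mean of the others.

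Transporters and channels gave 11 members, with an excess of 2.03 to 7.60. Slc4a5, an electrogenic sodium bicarbonate cotransporter, was high on vehicle replicate 1 and at background on most other arrays, so that its excess of 7.60 is no measured fold. It measured 11.02 on vehicle replicate 1, 3.41 and 3.32 on vehicle replicates 2 and 3, and 5.22, 1.98 and 4.16 on the GSK-J4 arrays, of which only replicate 1 was well above background. Kcne2, a potassium channel subunit, measured 12.29 on vehicle replicate 1, 5.49 and 5.38 on the other vehicle arrays, and 7.15, 4.97 and 6.09 on the GSK-J4 arrays. Aqp1, the apical water channel, measured 10.90 on vehicle replicate 1, 4.71 and 4.84 on the other vehicle arrays, and 5.79, 4.11 and 5.23 on the GSK-J4 arrays. In all 3 genes GSK-J4 replicate 1 came next after vehicle replicate 1. GSK-J4 replicate 2 was not well above background for Slc4a5 and Aqp1, so it has no rank there. Slc16a8, a lactate transporter, was well above background on vehicle replicate 1 alone and was there at least 19.6-fold above the mean of the others. Kcnj13, an inward rectifier, had an excess of 4.82, Clic6, a chloride channel protein, 4.57, Abca4, a retinoid flippase, 3.64, Trpv4, a cation channel that opens on swelling, 3.57, Slc2a12, a glucose transporter, 3.16, Trpm3, another cation channel, 2.63 and Slc13a4, a sulfate transporter, 2.03.

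Otx2 was the 1 transcription factor among the members. It measured 11.82 on vehicle replicate 1, 7.74 and 7.10 on vehicle replicates 2 and 3, and 8.75, 7.11 and 7.66 on the GSK-J4 arrays. The matrix and cytoskeleton list gave 6 members, with an excess of 2.85 to 4.50. They were Col8a1, Col8a2 and Col9a3, chains of short network and fibril-associated collagens, Krt8 and Krt18, the paired keratins of simple epithelia, and Calml4, a calmodulin-like protein of the brush border.

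**Figure D2:**
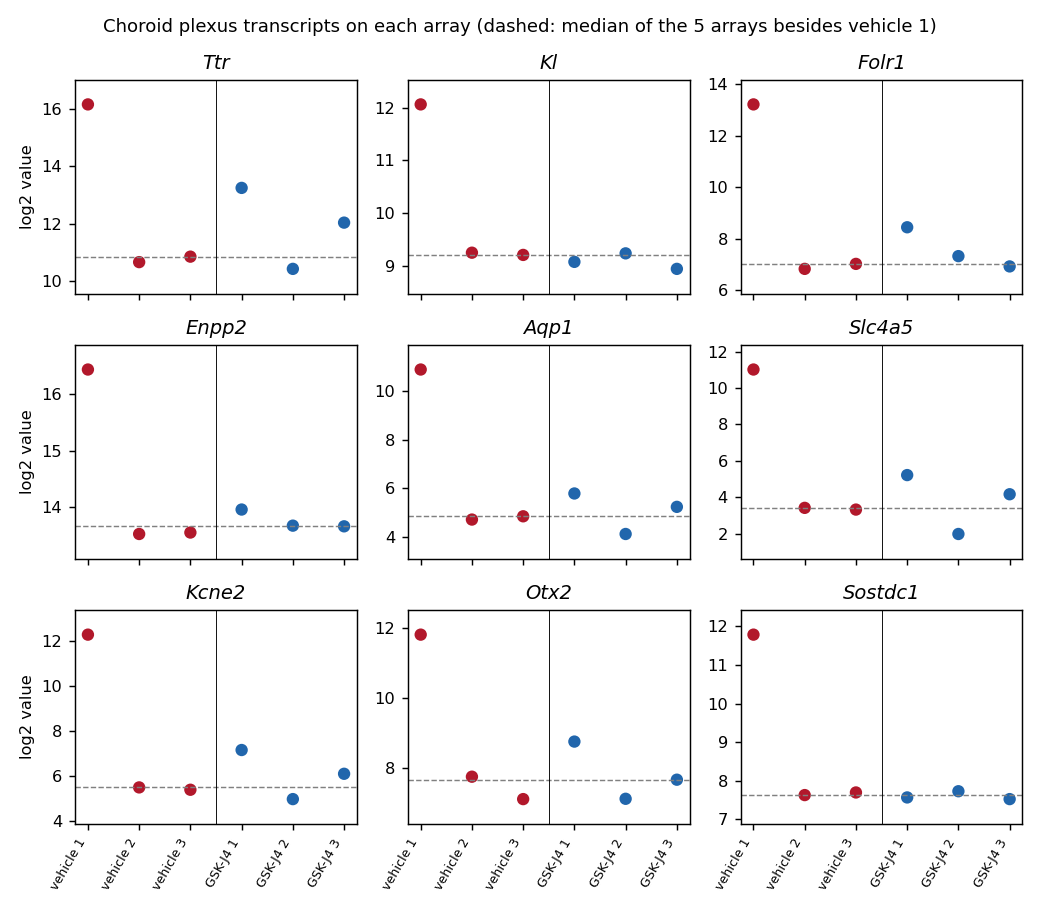
Log2 values (vertical, a scale of its own in each panel) of 9 members on the 6 arrays (horizontal), vehicle in red and GSK-J4 in blue, 1 point per array, with the median of the 5 arrays besides vehicle replicate 1 as a dashed line. Vehicle replicate 1 is the highest point in each panel, and Ttr, Folr1, Kcne2 and Otx2 also lie higher on GSK-J4 replicate 1 than on the remaining arrays, which Kl and Sostdc1 do not.

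The other 31 members were on no choroid plexus list and had a median excess of 3.24, beside 3.95 for the 34 on the lists. Wfdc2, a secreted protein with WAP domains, had an excess of 6.09. Tex22, named for its expression in testis, and a lincRNA probe on chromosome 8 (chr8:67554789-67554848 of mm9) were well above background on vehicle replicate 1 alone. They were there at least 76.2-fold and 32.1-fold above the mean of the other arrays, which is no bound against each of them. The 3 members with the smallest gap to the next array, Gm10856, AK140202 and AK156275, which were chosen after their values were seen, came within 0.31 to 0.56 of vehicle replicate 2, so that these transcripts were high on both of these arrays. No member was on a list for another cell type or region.

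Just inside the threshold on the excess lay Pon3 at 2.01, Slc13a4 at 2.03 and Vpreb1 at 2.10, and just outside it lay BM934532 at 1.99, Steap2 at 1.98 and Igfbp2, an insulin-like growth factor binding protein of the choroid plexus list, at 1.96. Just inside the threshold on the value lay Sult1c2 at 8.04, Pla2g5 at 8.15 and Wdr63 at 8.17, and just outside it BC133667 at 7.99, Nid2 at 7.95 and Sgms2 at 7.86. The members thus grade into transcripts that the rule left out.

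Other probes of the same genes were read as a further description. In 6 members over 1 probe had met the rule, so some of these other probes had met it too. The excess of those was fixed by the rule, and they are included in the counts that follow. They numbered 48 for 30 of the members, and 35 of them were well above background on vehicle replicate 1. Vehicle replicate 1 was the highest array for 30 of these 35, their median excess was 2.84, and 23 had an excess of at least 2. A second Ttr probe measured 14.02 on vehicle replicate 1 and between 5.38 and 8.41 elsewhere, and a second Folr1 probe measured 8.88 and between 2.26 and 3.65. Both of these probes had met the rule themselves. For some genes the probes disagreed. The brightest Tuba1c probe had an excess of 0.12, that of Pde3b 0.04 and that of Slc2a12 0.34, so their excess was seen on a dimmer probe of the gene. Tuba1c has close paralogs, and its probes may share signal with them.

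Most choroid plexus genes that the rule had left out were higher on vehicle replicate 1 as well. They come from the same array and from the same lists, which were written with earlier results of these data known. Their values are thus a description and no independent evidence. Of the 30 that were no members, 26 stood well above background on each of the 6 arrays. Of these, 21 had their highest value on it and 15 had an excess of at least 1, with a median excess of 1.21, whereas of all 20202 genes measured that well 15.5% had their highest value on it and 1.73% an excess of at least 1. Cldn3, a claudin, and Slco1a5, an organic anion transporter, were well above background on vehicle replicate 1 alone, at 7.10 and 7.28, which is below the threshold on the value. Igf2, the insulin-like growth factor, had an excess of 1.93, Msx1, a homeodomain factor, 1.48, Car12, a carbonic anhydrase, 1.26, and Htr2c, a serotonin receptor that neurons also carry, 1.06. The list gene Mfrp was read by the probe of C1qtnf5, whose locus it shares, with an excess of 1.87. In 5 of the 26 genes vehicle replicate 1 was not the highest array, namely Rbp4, Lrp2, Atp1b1, Abcg2 and Abcc1. Rbp4, a carrier of retinol, had an excess of −0.56, Lrp2, an endocytic receptor, −0.36 and Atp1b1, a subunit of the sodium pump, −0.28.

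Linear signals summed over a list were compared between arrays. The sum over the secreted proteins was 7.002-fold higher on vehicle replicate 1 than the median of the other arrays, that over the receptors and surface proteins 7.84-fold, that over the transporters and channels 1.53-fold, and that over all 5 lists 3.13-fold. Among the other 5 arrays, the sum over the secreted proteins was 38520 on GSK-J4 replicate 1, 29866 and 31370 on GSK-J4 replicates 2 and 3, and 23230 and 25226 on vehicle replicates 2 and 3, beside 209104 on vehicle replicate 1. GSK-J4 replicate 1 was the highest of the 5 for this list and for the receptors (4656 beside 3239 to 4286). Over the transporters and channels it was the lowest, at 74055, with 91041 and 94421 on vehicle replicates 2 and 3 as the highest. By gene, however, it was the highest of the 5 in 11 of 23 genes on this list. Its median deviation from the median of the 5 arrays was 0.11 there. Over all 5 lists it was at 127043, between 118623 on GSK-J4 replicate 2 and 132515 on vehicle replicate 3. The order of these sums thus depended on the list, and a sum weighs the brightest genes most.

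By their medians, lists of other cell types and regions were much closer to the other arrays. The largest single excess on them was 2.34, for 1 gene of the thalamus and habenula list that was no member. The excess had a median of 0.04 over 9 tanycyte genes, −0.21 over 13 genes of meninges and stromal fibroblasts, 0.03 over 11 of the endothelium, 0.12 over 7 of border macrophages, 0.02 over 6 of erythrocytes, 0.06 over 11 of thalamus and habenula, 0.22 over 8 of the hippocampus and −0.21 over 13 of the hypothalamus. Hemoglobin and other erythrocyte genes and the meningeal genes never had their highest value on vehicle replicate 1. Ependymal and ciliary genes lay between these, with a median excess of 0.33 over 16 genes, 9 of which were highest on vehicle replicate 1. Mia had an excess of 1.53, Tekt1, a protein of ciliary microtubules, 1.51, Pifo 1.40, Dynlrb2, a dynein light chain, 1.18, and Ak7, an adenylate kinase of cilia, 1.09, whereas Foxj1, the regulator of motile cilia, had 0.76 and Ccdc153 and Tmem212, which mark the ependyma of the ventricle wall, had −0.26 and −0.07. The lowest excess on this ependymal list was −0.77, and vehicle replicate 1 was the lowest array in 2 of its 16 genes. Pituitary hormone genes Gh, Prl and Cga were well above background on no array. How much choroid plexus tissue the dissection of vehicle replicate 1 held was not measured, and its part in these values was not tested.

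**Figure D3:**
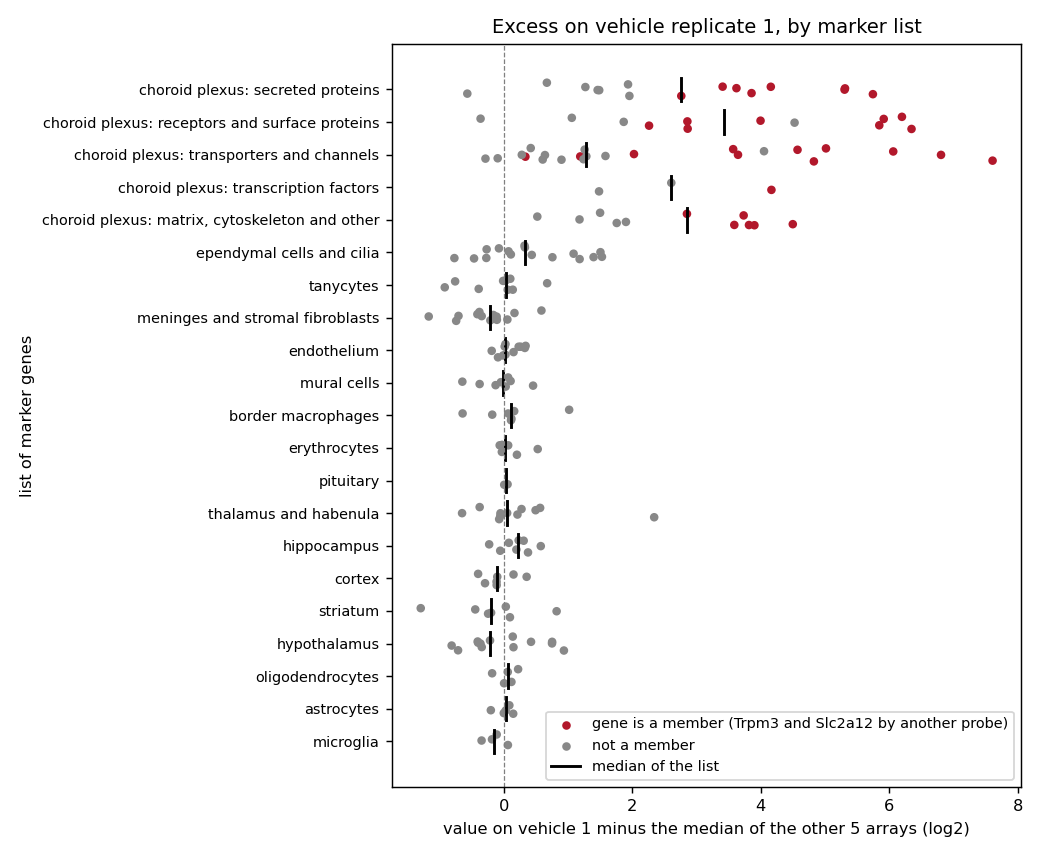
Excess of vehicle replicate 1 over the median of the other 5 arrays (horizontal, log2) for the detected genes of each marker list (vertical), 1 point per gene, members in red and list medians as black bars. The choroid plexus lists reach 7.60 with medians of 1.29 to 3.43, and the medians of the other lists lie between −0.21 and 0.33.

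The rule was then applied with each other array in the place of vehicle replicate 1. It gave 11 genes for GSK-J4 replicate 1, 3 for GSK-J4 replicate 2, 15 for GSK-J4 replicate 3, and 3 each for vehicle replicates 2 and 3, beside the 65 of vehicle replicate 1. Of the 11 genes of GSK-J4 replicate 1, 1 was a member, and it was Ttr. Vehicle replicate 2 shared Gm10856 with the members, and no other array gave a gene of the choroid plexus lists.

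Among the other 5 arrays the members were unevenly spread. GSK-J4 replicate 1 was the highest of the 5 in 46 of 65 members, or 70.8%, and in 32 of the 48 that were well above background on all 6 arrays, beside 23.0% of all 20202 genes measured that well. Its median deviation from the median of the 5 arrays was 0.57 over the members, while that of GSK-J4 replicate 3 was 0.04, that of GSK-J4 replicate 2 was 0, and those of vehicle replicates 2 and 3 were −0.11 and −0.14. Within the GSK-J4 group, replicate 1 lay above replicate 2 in 52 of 65 members, with a median difference of 0.48. Across the members, this difference went with the difference between vehicle replicate 1 and its slide neighbours, with a Pearson r of 0.60 and a Spearman rho of 0.64 over 65 genes. The points are genes of the same arrays, not independent replicates, and vehicle replicate 1 had chosen them. For the difference between GSK-J4 replicates 3 and 2, r was 0.47 and rho 0.42. Over the 48 members well above background on all 6 arrays, replicate 1 lay above replicate 2 in 35, with a median difference of 0.33, an r of 0.61 and a rho of 0.61. For the counts of replicate 1 above replicate 2 and for the correlations, no values over all genes were computed. Ttr differed by 2.82 and Kcne2 by 2.19 between GSK-J4 replicates 1 and 2, whereas Kl and Sostdc1 each differed by −0.16.

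**Figure D4:**
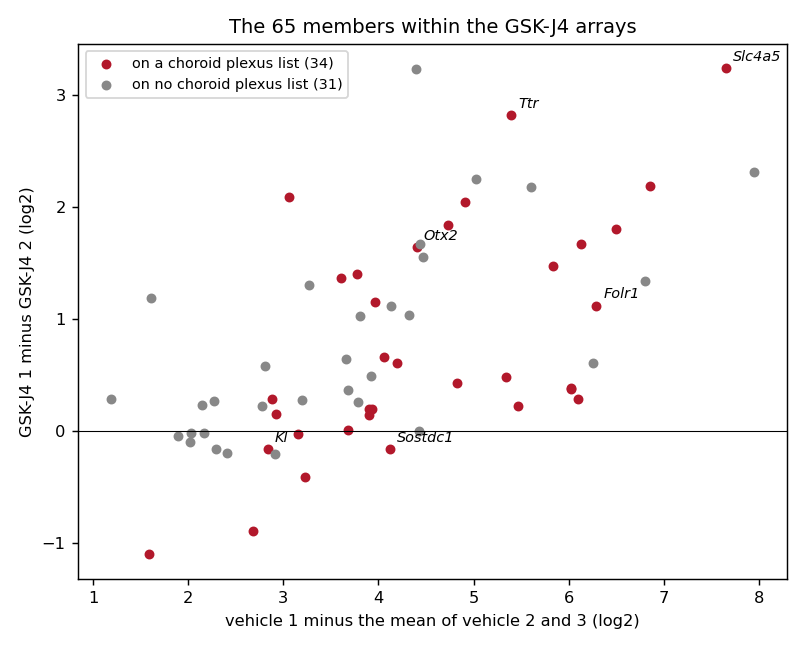
Difference between GSK-J4 replicates 1 and 2 (vertical, log2) against the difference between vehicle replicate 1 and the mean of vehicle replicates 2 and 3 (horizontal, log2) for the 65 members, 1 point per gene, red for genes on a choroid plexus list. Most points lie above 0, Ttr is high on both axes, Slc4a5 was not well above background on GSK-J4 replicate 2, and Kl and Sostdc1 lie close to 0 on the vertical one.

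GSK-J4 was compared with vehicle replicates 2 and 3 alone, since the members were chosen for their high values on vehicle replicate 1. The rule also used the other 5 arrays, through their median and the choice of the probe. Leaving out vehicle replicate 1 thus does not free the members' values from the rule. With limma and Benjamini-Hochberg adjustment over 22388 genes, 43 genes, or 0.192%, passed an adjusted p of 0.05, 14 higher and 29 lower with GSK-J4. This count was 12 without GSK-J4 replicate 3 and 0 without any 1 of the other 4 arrays. The balance turned with some of the processing, to 1986 higher and 932 lower with scaling to the 75th percentile. It was 662 higher and 516 lower among probes well above background on all 5 arrays. With normexp background correction more genes were again lower, with 484 higher and 544 lower. Of the 65 members, 56 had a probe well above background on all arrays of a group and were tested, 50 of them on the probe that the rule had taken, and 0 passed. The 9 that were not tested were Slc4a5, Tex22, Tmem72, Cldn2, Defb11, Slc16a8, Prr32, Sult1c2 and the lincRNA on chromosome 8. At an unadjusted p of at most 0.05, limma gave 15 of the 56 members, or 26.8%, beside 6835 of all genes, or 30.5%. The methods' t-test at their 1.5-fold and unadjusted p gave 3 members, Col8a1, Ace and a lincRNA on chromosome 17, all higher with GSK-J4, and 0 members after adjustment. These are 5.36% of the members tested, beside 7.13% of all genes (687 higher and 910 lower), so neither share exceeded the background.

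The members leaned upward with GSK-J4 in this comparison, with 44 of 56 above 0 and a median log2 difference of 0.40, beside 0.03 over all genes tested. Without GSK-J4 replicate 1 as well, the median of the members was 0.19 and 36 of 56 were above 0. The share of all genes above 0 was not computed. All 3 GSK-J4 arrays lay above both vehicle arrays in 21 of the 56 members, or 37.5%, beside 29.7% of all genes. The reverse held for 5 members and for 24.2% of all genes. As the rule had used the median of the other 5 arrays, these values describe the members only.

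Ttr averaged 11.90 ± 1.41 (SD, n = 3) with GSK-J4 and 10.75 ± 0.14 (SD, n = 2) with vehicle, a log2 difference of 1.15 with a standard error of 0.85 and an adjusted limma p of 0.41. Its exact two-sided permutation p was 0.4, where 0.1 is the smallest that 3 arrays against 2 can give. Folr1 differed by 0.64 with a standard error of 0.48 and an adjusted limma p of 0.41, and Kl by −0.14 with a standard error of 0.11 and an adjusted limma p of 0.43. None of the 3 passed the test. Ttr differed by 0.48 and Folr1 by 0.20 without GSK-J4 replicate 1, and Ttr by 1.89 and Kl by −0.22 without GSK-J4 replicate 2. Without GSK-J4 replicate 3, Folr1 differed by 0.96 and Kl by −0.07. The smallest unadjusted limma p-values among the members were those of Frem1, a basement membrane protein, with a difference of −0.46 and a p of 0.0017, of the lincRNA on chromosome 17, with 0.99 and 0.0024, and of Ace, with 0.78 and 0.0038. Frem1 and this lincRNA were chosen after their values were seen, and the adjusted limma p-values of the 3 were 0.057, 0.060 and 0.064.

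With vehicle replicate 1 included, which had chosen the members, the same genes are given as a description. Over all 6 arrays 4 of 56 members were above 0 and the median log2 difference was −0.78, so that most members lay lower with GSK-J4. Ttr then averaged 12.55 ± 3.12 (SD, n = 3) with vehicle and differed by −0.65, Folr1 differed by −1.46, and Kl by −1.09. The median standard error of the members was 1.05, against 0.30 without vehicle replicate 1, whereas over all genes it was 0.118 against 0.123. limma called 3717 of 22107 genes, or 16.8%, in this comparison and 0 of the 56 members, and nothing is read from that count. The lower sign in this comparison follows from how the members were chosen and is no result about GSK-J4.

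**Figure D5:**
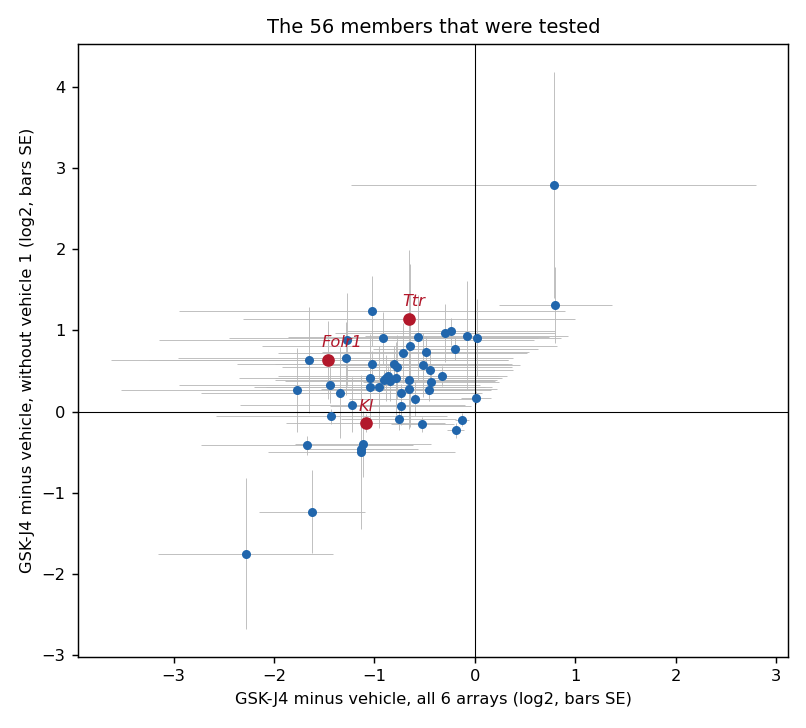
Log2 difference between GSK-J4 and vehicle for the 56 tested members, without vehicle replicate 1 (vertical) and with all 6 arrays (horizontal), 1 point per gene with standard errors from limma as bars. The median is 0.40 on the vertical axis and −0.78 on the horizontal one, and Ttr and Folr1 change sign between them.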

How the data were processed

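The 65 members, the gene lists and the comparisons were chosen with earlier results of these data known. Per the labels and the methods, total RNA was labelled with Cy3 and hybridized to Agilent SurePrint G3 mouse arrays. The authors deposited the background-corrected intensity of each spot from Feature Extraction (10.7.1.1) and a table of log2 values for 56745 probes, quantile normalized in GeneSpring. After sorting, its columns differed by at most 0.00424. Every column correlated at 0.999 or more with the array it was named for, and 0 columns stayed unassigned. Members and their values were taken from this table, and probes are placed on mm9 as in the files.

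For the tests, deposited intensities were read in R 4.3.3 with limma 3.58.1 and the package data.table (1.17.8). Controls and outlier flags were left out, spots of a probe were averaged on the log2 scale and the 6 arrays were quantile normalized. Probes had to be well above background on every array of either group in the fit, and the probe that averaged highest stood for its gene name. GSK-J4 was compared with vehicle replicates 2 and 3 by lmFit and eBayes (two-sided, without covariates) and called at an adjusted p of 0.05. The test was run on simulated data with independent noise for each gene and array. These held no slide effect, no shift of a whole array and no mixture of tissues, so the check says nothing on such effects. A bound of the form at least N-fold sets the value on vehicle replicate 1 against the mean, over the other arrays, of the higher of the probe's own value and the lowest signal of any probe well above background. Genes were named by rule: Ttr, Kl and Folr1, members on a choroid plexus list, the 10 largest excesses, the 3 genes on either side of each threshold, and list genes where lists are counted. Same-numbered arrays of the groups deviated from their group means with correlations of 0.0036, 0.017 and 0.10, so the numbers were not taken to pair them. The number of arrays limits the precision, and p-values measure the spread between these mice only. Other scalings, filters, probe rules, a replicate block, a GC correction and leaving out each array were tried as alternatives.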

Additional observations from a re-analysis of the deposited data

How the results depend on the processing

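The number of members was 65 and rose to 112 with an excess of at least 1.5. With the other thresholds, scalings and references it was between 45 and 92. References chosen after seeing the data gave 80 (the mean of vehicle replicates 2 and 3) and 70 (the median without GSK-J4 replicate 1).

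The count of genes called without vehicle replicate 1 was 43 and depended on the processing. It was 2918 with scaling to the 75th percentile, 1028 with normexp, 1178 among probes well above background on all 5 arrays, 3717 with all 6 arrays, 11 with a GC trend removed, 1597 by the methods' t-test, and 0 with a replicate block, and it ran from 0 to 12 when 1 array was left out, with 12 only without GSK-J4 replicate 3. The count of members called was 0 and became 3 with the 75th percentile (the lincRNA on chromosome 17 higher, Frem1 and Oca2 lower), 1 with normexp (that lincRNA), 3 among probes well above background on all 5 arrays (that lincRNA and Ace higher, Frem1 lower) and 3 by the methods' t-test. The median log2 difference of the members was 0.40, and −0.78 with all 6 arrays, 0.19 with the replicate block, and 0.19 to 0.52 when 1 array was left out, the lowest without GSK-J4 replicate 1. With the block, GSK-J4 replicate 1 has no partner and drops out, which is why both values are 0.19. Folr1 and Ttr reversed to −1.46 and −0.65 with all 6 arrays, and Kl to 0.042 with the GC trend removed. Apart from these reversals, the cause of which was not tested for Kl, the values of Ttr, Kl and Folr1 kept their direction though not their size, and none passed an adjusted limma p of 0.05 under any alternative. Only 2 vehicle arrays remained in these tests, and 48 of the 65 members were well above background on all other arrays, which limits what can be seen in the rest.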
